A study of Drosophila melanogaster with 2 samples.

Results

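The Cpr genes of Drosophila melanogaster encode cuticular proteins named for the Rebers and Riddiford domain, a stretch through which these secreted proteins bind chitin. Every gene whose symbol begins with Cpr followed by a cytological number was taken, which gave 70 of the 14001 genes measured, all 70 annotated as protein-coding. The number and letter of a symbol give the polytene chromosome band of the gene, so that genes named 49A are neighbours. The rule reads the name alone. It leaves out Cpr, the gene of cytochrome P450 reductase. Chitin-binding cuticle genes that carry other names, such as the Lcp and Ccp84A genes, Edg78E and Edg84A, are also left out. The domain itself was not checked, since no protein sequence was used.

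Both libraries came from larvae in the third instar. The animals carried the f04929 allele of HP1c on both homologues and were kept at 25 °C and about 70% humidity on Jazzmix food. They are labelled as replicates 1 and 2 of 1 group, and the labels leave unsaid whether the cultures were separate, how many larvae were pooled and what their age within the instar was. HP1c is a chromodomain protein of the heterochromatin protein 1 family. A second genotype is named in the series design and was not analysed here, so no effect of the allele can be given. The HP1c gene itself had 25 reads (0.842 TPM, a transcript's share of all transcripts after correction for length) in replicate 1 and 42 reads (1.08 TPM) in replicate 2. Comparisons between the libraries describe these 2 samples of one genotype. With no other group there was no test over replicates, and no p-value is given.

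Insect cuticle is a layered matrix of chitin fibres and proteins laid down by the epidermis and by the lining of the trachea, foregut and hindgut. At each moult a new cuticle is secreted under the old one, and different sets of cuticle protein genes are switched on for successive layers and stages, in step with pulses of the steroid hormone ecdysone. Domain variants known as RR-1 and RR-2 are associated with soft and with hard cuticle in many insects. For most single Cpr genes no role of their own is established, and the family is described below by level, by position and by the ratio between the libraries.

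The libraries held 39745145 and 45177298 estimated reads. Entries named as rRNA took 12.1% of the reads of replicate 1 and 2.55% of those of replicate 2. All 9 marker genes of larvae in the third instar were detected and summed to 73828 and 106613 TPM, with the storage protein gene Lsp2 at 8537 and 8555 TPM. The yolk protein genes Yp1, Yp2 and Yp3 of adult females summed to 0.867 and 0.699 TPM. These are whole-animal samples, in which fewer cells of a type and less RNA per cell cannot be told apart.

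A handful of members supplied nearly all of the Cpr transcripts, and most other members were low or silent. Their summed level was 5352 TPM in replicate 1 and 5149 TPM in replicate 2, or 0.525% ± 0.0143 of all TPM (SD, n = 2). At 1 TPM or more in both libraries, 34 of the 70 genes (48.6%) counted as detected, against 77.9% of all genes. The median Cpr gene stood at 1.01 TPM in each library, where the median of all genes was 8.17 and 8.07 TPM. The 10 most abundant members held 97.0% ± 1.03 of the Cpr TPM, and the leading pair alone 86.1% ± 1.19.

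Cpr49Ac (FBgn0033725, 2R, 12386666 to 12390057 on the BDGP6 assembly, plus strand) was the most abundant member in both libraries. It stood at 3131 TPM (95% interval 3115 to 3147) in replicate 1 and 2449 TPM (2437 to 2462) in replicate 2, from 148003 and 147523 reads. Its mean of 2790.1 ± 482 TPM placed it 45th among all genes. The other abundant member was Cpr78E (FBgn0037114, 3L, 21666452 to 21666980, minus strand), a short gene that encodes 137 residues. It stood at 1432 and 2027 TPM in replicates 1 and 2, so the order of the leading pair was the same in both libraries while the gap between them narrowed in replicate 2.

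Below the leading pair, Cpr12A on X (13543643 to 13544907) stood at 229 and 137 TPM in replicates 1 and 2. Cpr57A on 2R (20548368 to 20550117) stood at 131 and 217 TPM, so that these neighbours in rank exchanged places between the libraries. Each differs from the other within a library by more than its counting interval, and their mean levels of 183 and 174 TPM lie closer together than do the libraries of either gene. The annotation places exons of Obp57d, an odorant-binding protein gene of the same strand, over those of Cpr57A, and reads of the shared stretch cannot be told apart by gene.

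The remaining members of the first 10 lay between 12.9 and 66.1 TPM. Cpr60D, which encodes 93 residues, stood at 48.7 TPM in replicate 1 and 61.0 TPM in replicate 2, whereas Cpr49Ag stood at 66.1 and 31.9 TPM. Cpr51A stood at 44.4 and 40.4 TPM and Cpr67B at 37.3 and 36.6 TPM, the steadiest of this range. Further down, Cpr65Ec stood at 20.1 and 13.2 TPM and Cpr92F at 12.9 and 18.3 TPM. A further 24 members were detected, at levels from 1.01 to 27.0 TPM, and in all 13 members reached 10 TPM in both libraries.

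**Figure D1:**
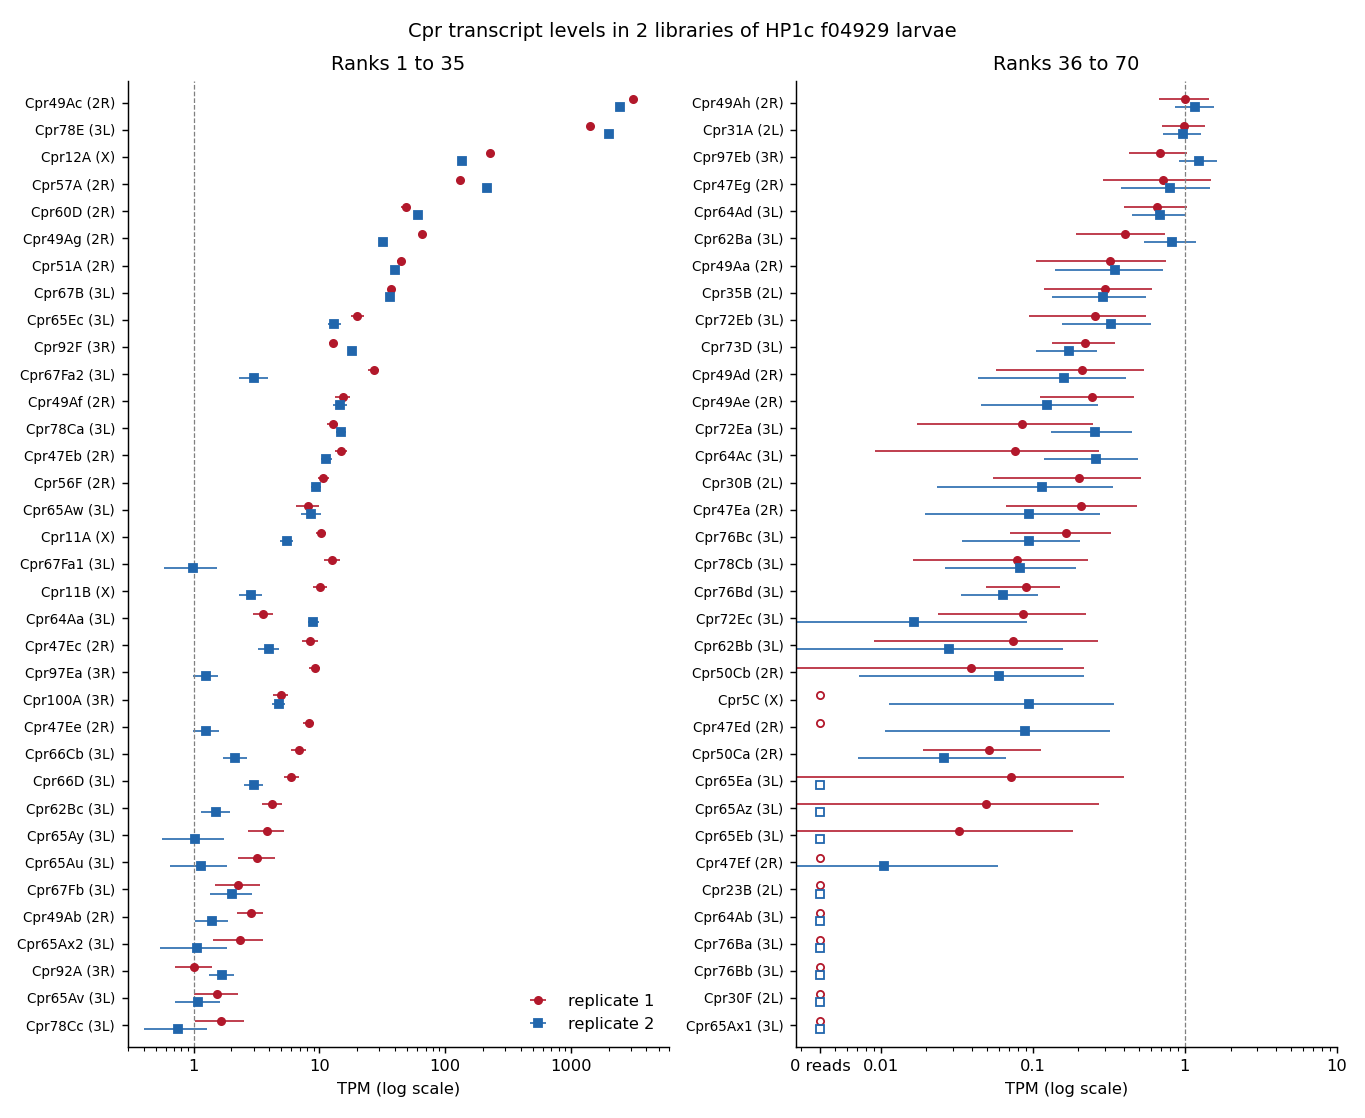
Level of each of the 70 Cpr genes in TPM (log axis), ordered by mean level from top left to bottom right, with replicate 1 as circles and replicate 2 as squares. Bars are exact 95% Poisson intervals and run off the axis where the count is near 0; open symbols at the left mark 0 reads, the dashed line marks 1 TPM, and the chromosome arm stands in brackets. Cpr49Ac and Cpr78E stand apart at the top in both libraries, and 33 genes lie under 1 TPM in both.

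The other end of the family was silent or close to it at this depth. In both libraries 33 members were under 1 TPM. Of these, Cpr23B, Cpr30F, Cpr64Ab, Cpr65Ax1, Cpr76Ba and Cpr76Bb had 0 reads in each library. As a one-sided limit a count of 0 allows up to 3 reads, which corresponds to between 0.0923 and 0.348 TPM in replicate 1 and between 0.0701 and 0.270 TPM in replicate 2, depending on the length of the transcript. The limit takes all reads of a gene as assigned to it, which is uncertain for Cpr65Ax1, named as a copy of Cpr65Ax2. The other 27 had at least 1 read in at least 1 library and reached at most 0.992 TPM, the value of Cpr31A in replicate 1. Among the near-silent members was Cpr72Ec, with 4 reads in replicate 1 and 1 read in replicate 2. The remaining 3 members crossed 1 TPM in 1 library. Cpr67Fa1 (12.6 and 0.982 TPM in replicates 1 and 2) and Cpr78Cc (1.65 and 0.751 TPM) were over it in replicate 1, and Cpr97Eb (0.685 and 1.23 TPM) in replicate 2. The value nearest above the line was that of Cpr49Ah, at 1.01 TPM in replicate 1.

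By chromosome arm, 35 members lie on 3L, 21 on 2R, 5 on each of 2L and 3R, and 4 on X. None of the 5 members on 2L was detected, and their summed level was 1.49 and 1.38 TPM in replicates 1 and 2. On 2R 12 of 21 were detected, on 3L 15 of 35, on 3R 4 of 5 and on X 3 of 4.

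Many Cpr genes differed between the libraries, and nearly all of those that did were higher in replicate 1. Reads were scaled with TMM factors (trimmed mean of M-values). To count as differing, a gene needed 10 reads on average, a scaled ratio of 2-fold or more, and an exact 95% interval that excluded 1. Of the 70 members 42 had enough reads, and 14 of them (33.3%) differed, against 5.42% of the 12206 genes of the whole table with enough reads. By direction, 13 members were higher in replicate 1 (4.1% of all genes were) and 1 member was higher in replicate 2 (1.32% of all genes). Among the 26 members with 100 reads or more on average 9 differed (3.7% of all such genes), 8 of them higher in replicate 1 (2.86%) and 1 in replicate 2 (0.84%). With library size as the sole scaling, 12 members differed, 9 higher in replicate 1 and 3 in replicate 2, and 10 of these were among the 14. Under that scaling 394 of all 12206 genes were higher in replicate 1 and 276 in replicate 2. Across the 42 members the median log2 ratio, replicate 1 over replicate 2, was 0.37 (quartiles -0.08 and 1.08), beside -0.02 (quartiles -0.19 and 0.19) over all genes with enough reads. With library size alone the Cpr median was 0.18 and that of all genes -0.21. Members of a cluster are not independent of each other, so these shares describe the 2 libraries.

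The largest ratios belonged to the neighbours Cpr67Fa1 and Cpr67Fa2 on 3L (10889990 to 10892516), each encoding 134 residues. Cpr67Fa2 stood at 27.0 TPM (401 reads) in replicate 1 and 3.03 TPM (59 reads) in replicate 2, a scaled ratio of 8.80-fold (95% interval 6.68 to 11.8). Cpr67Fa1 stood at 12.6 TPM (182 reads) in replicate 1 and 0.982 TPM (18 reads) in replicate 2, a ratio of 13.1-fold (8.05 to 22.6). Their read estimates are fractional although each has a single transcript, so some reads were shared out between transcripts, and the split within the pair is uncertain. Summed, the pair had 583 reads in replicate 1 and 77 in replicate 2, which is 9.80-fold (7.72 to 12.6).

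A pair of longer proteins came next. Cpr97Ea (3R, 27083130 to 27087778, 366 residues) stood at 9.18 TPM in replicate 1 and 1.25 TPM in replicate 2, from 444 and 80 reads, a ratio of 7.18-fold (5.65 to 9.23). Cpr47Ee (2R, 11265126 to 11266856, 369 residues) stood at 8.21 and 1.26 TPM, from 360 and 73 reads, a ratio of 6.38-fold (4.95 to 8.33). These 4 genes were the members more than 4-fold apart, and each was at or below 3.03 TPM in replicate 2.

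Between 2-fold and 4-fold, 9 members were higher in replicate 1. The X-linked gene Cpr11B, at 10.1 TPM in replicate 1 and 2.85 TPM in replicate 2, was 3.49-fold higher (2.73 to 4.50). Cpr66Cb, at 6.88 and 2.14 TPM, was 3.17-fold higher (2.45 to 4.13), and Cpr62Bc, at 4.22 and 1.51 TPM, 2.76-fold (2.02 to 3.80). From few reads, Cpr65Ay (40 and 14 reads) was 3.70-fold higher (1.97 to 7.36) and Cpr65Au (35 and 16 reads) 2.83-fold (1.53 to 5.48), the second with an annotated antisense RNA over its exons. Nearest to the line were Cpr78Cc (22 and 13 reads, 2.19-fold, 1.06 to 4.73), Cpr65Ax2 (20 and 12 reads, 2.16-fold, 1.004 to 4.84), Cpr47Ec (178 and 110 reads, 2.09-fold, 1.64 to 2.68) and Cpr49Ag (1179 and 745 reads, 2.05-fold, 1.87 to 2.25). With library size alone these last 4 were no longer counted. The read estimates of Cpr47Ec and Cpr49Ag are also fractional on a single transcript, so some of their reads were shared out between transcripts. Cpr62Bc, Cpr65Ay, Cpr65Au, Cpr78Cc and Cpr65Ax2 averaged fewer than 100 reads. Just outside lay Cpr49Ab at 1.998-fold (1.36 to 2.96) and Cpr66D at 1.96-fold (1.57 to 2.46).

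The member that went the other way was Cpr64Aa (3L, 4207838 to 4209178). It stood at 3.58 TPM (110 reads) in replicate 1 and 8.99 TPM (363 reads) in replicate 2, a ratio of 0.392 (0.314 to 0.487), which is 2.55-fold higher in replicate 2. Cpr62Ba, with 10 and 27 reads, had a ratio of 0.479 with an interval that included 1 (0.207 to 1.02).

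The abundant members were among those that did not pass 2-fold. None of the 4 genes over 100 TPM did, as against 2 of the 11 genes between 10 and 100 TPM and 12 of the 21 between 1 and 10 TPM, all by mean level. Shares of all genes were not computed within these ranges of level. Whether the pattern is particular to the Cpr genes was therefore not tested. The ratios of the 4 most abundant members had both signs. Cpr49Ac was 1.30-fold (1.29 to 1.31) and Cpr12A 1.65-fold (1.58 to 1.71) higher in replicate 1, while Cpr78E was 1.42-fold (1.39 to 1.44) and Cpr57A 1.68-fold (1.60 to 1.77) higher in replicate 2. The 13 genes higher in replicate 1 together had 164 TPM in replicate 1 and 52.9 TPM in replicate 2, or 3.06% and 1.03% of the family sum, so their ratios had little weight in the family totals. Of the 42 members with enough reads, 20 had an interval wholly above 1, 8 wholly below 1 and 14 included 1. Among all genes the intervals lay wholly above 1 for 27.4% and wholly below 1 for 26.2%.

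**Figure D2:**
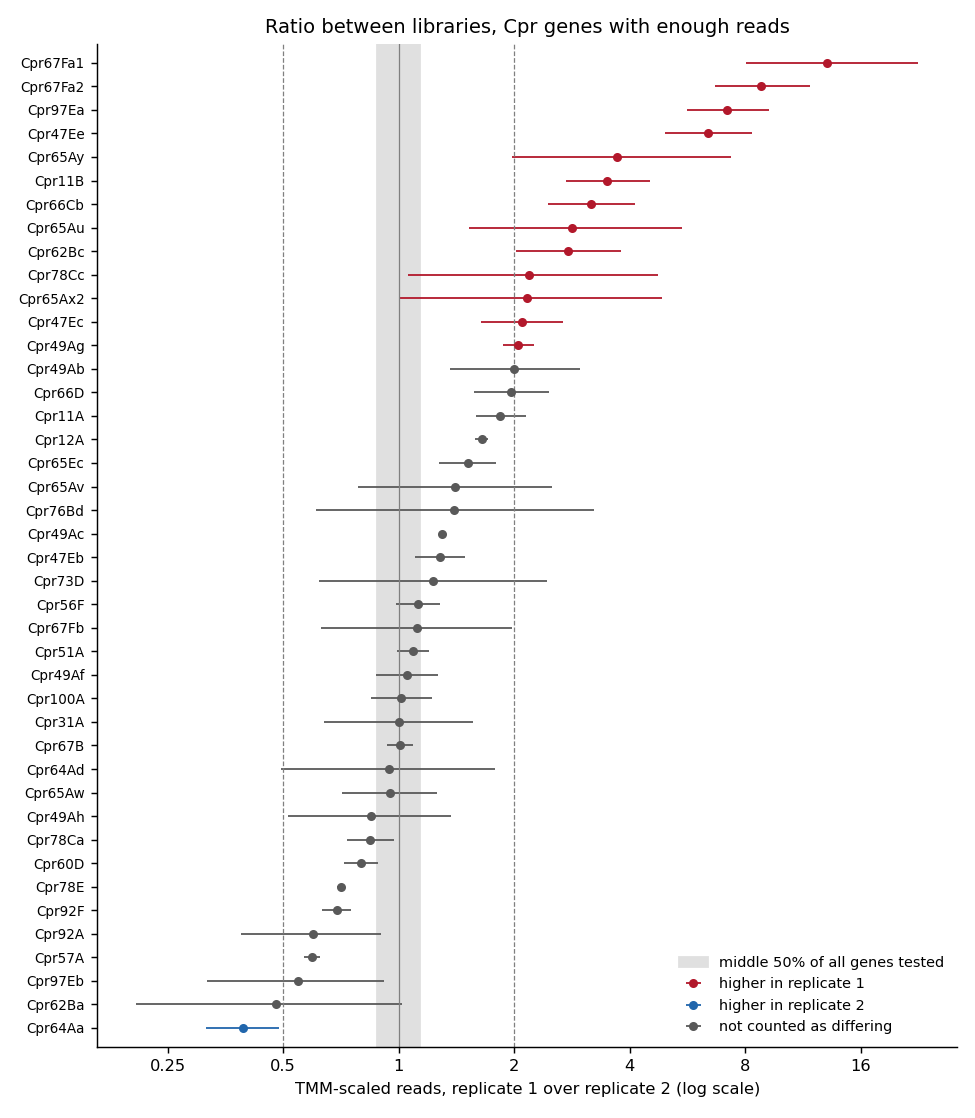
Scaled ratio of reads, replicate 1 over replicate 2 (log axis), for the 42 Cpr genes that averaged 10 reads or more. Points are ratios and bars exact 95% intervals that cover counting error; the grey band holds the middle 50% of all 12206 genes with enough reads and the dashed lines mark 2-fold in each direction. The 13 genes counted as higher in replicate 1 run from 2.05-fold to 13.1-fold, and Cpr64Aa is the 1 gene counted as higher in replicate 2.

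The 70 genes fall into 33 cytological bands, of which 21 hold a single member and 12 hold several, with 49 members in all. Of the single members 14 of 21 were detected, and of the clustered members 20 of 49. Of the 12 clusters, 50C, 72E and 76B held no detected gene. In 49A, 64A, 65E and 78C, and in no other cluster, a single gene carried 83.0% or more of the summed level in both libraries. Other clusters also drew most of their level from a leading gene, with lower shares, such as 67F (64.5% and 50.1% in replicates 1 and 2).

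The 49A cluster (2R, 12376626 to 12415170, 8 genes over 38.5 kb, of which 7 lie on the plus strand) was the most abundant, at 3217 and 2499 TPM in replicates 1 and 2. Of this sum Cpr49Ac made up 97.3% in replicate 1 and 98.0% in replicate 2. Without it the other members had 86.0 TPM in replicate 1 and 49.7 TPM in replicate 2, carried by Cpr49Ag and by Cpr49Af (15.3 and 14.6 TPM). Cpr49Aa, Cpr49Ad and Cpr49Ae had fewer than 10 reads in each library, although Cpr49Ad lies next to Cpr49Ac.

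In the 47E cluster (2R, 11251751 to 11278445, 7 genes) the summed level was 32.4 TPM in replicate 1 and 17.6 TPM in replicate 2, a scaled ratio of 2.11-fold (1.90 to 2.35). Its most abundant member, Cpr47Eb, had a ratio of 1.28 (1.10 to 1.49) and stood at 14.8 and 11.4 TPM in replicates 1 and 2. The cluster ratio therefore drew on Cpr47Ec (8.43 and 3.97 TPM) and Cpr47Ee. The other 4 members had at most 10 reads in either library, among them Cpr47Ef, the direct neighbour of Cpr47Ee on the opposite strand, with 0 reads in replicate 1 and 1 in replicate 2.

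The 67F cluster (3 genes, all on the plus strand, within 4.70 kb) had the largest ratio of any cluster, at 41.9 TPM in replicate 1 and 6.04 TPM in replicate 2 (7.42-fold, 6.03 to 9.21). The remaining gene, Cpr67Fb, had 25 and 29 reads and a ratio of 1.12 (0.627 to 1.97), so the difference lay in the Cpr67Fa pair. An annotated antisense RNA lies over exons of Cpr67Fb, and its reads may not be separated from those of the gene. The 97E pair followed, at 9.87 TPM in replicate 1 and 2.48 TPM in replicate 2 (4.57-fold, 3.76 to 5.59). There the neighbours had ratios on opposite sides of 1. Cpr97Ea was higher in replicate 1, and Cpr97Eb, with 22 and 52 reads, had a ratio of 0.548 (0.317 to 0.918). In 62B (4.70 and 2.35 TPM, 2.07-fold, 1.57 to 2.72) Cpr62Bc was higher in replicate 1, while Cpr62Ba, described above, was not.

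The 64A cluster (4 genes) was the 1 cluster higher in replicate 2, at 4.32 TPM in replicate 1 and 9.94 TPM in replicate 2 (2.35-fold, 1.92 to 2.88). Cpr64Aa made up 83.0% of it in replicate 1 and 90.5% in replicate 2. The other member with enough reads, Cpr64Ad, stood at 0.659 and 0.686 TPM in replicates 1 and 2.

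The 65A band (3L, 6131242 to 6161589) is shared between Cpr and Lcp65A genes, which encode larval cuticle proteins of the same domain family. Its 7 Cpr members together had 19.1 TPM in replicate 1 and 12.9 TPM in replicate 2 (1.46-fold, 1.19 to 1.79), led by Cpr65Aw at 8.12 and 8.56 TPM. The 11 Lcp65A and Acp65Aa genes of the band summed to 839 and 607 TPM. Between Cpr members of the band the ratios differed, from 0.946 (0.709 to 1.26) for Cpr65Aw to 3.70-fold for Cpr65Ay. Cpr65Ax1 and Cpr65Ax2, named as copies and each encoding 102 residues, had 0 reads and 20 reads in replicate 1, and 0 and 12 in replicate 2. If the copies share sequence, the assignment of reads to one of them is uncertain.

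In the 65E cluster Cpr65Ec held 99.5% of the summed level in replicate 1 and 100% in replicate 2, while Cpr65Ea and Cpr65Eb had 1 read each in replicate 1 and 0 in replicate 2. The 78C cluster stood at 14.5 and 15.7 TPM in replicates 1 and 2, with 88.1% and 94.7% of it from Cpr78Ca (12.8 and 14.9 TPM). The 72E cluster reached 0.427 and 0.599 TPM, led by Cpr72Eb (0.256 and 0.325 TPM, from 6 and 10 reads). The 76B cluster reached 0.256 and 0.157 TPM, led by Cpr76Bc (0.165 and 0.0939 TPM, from 8 and 6 reads).

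**Figure D3:**
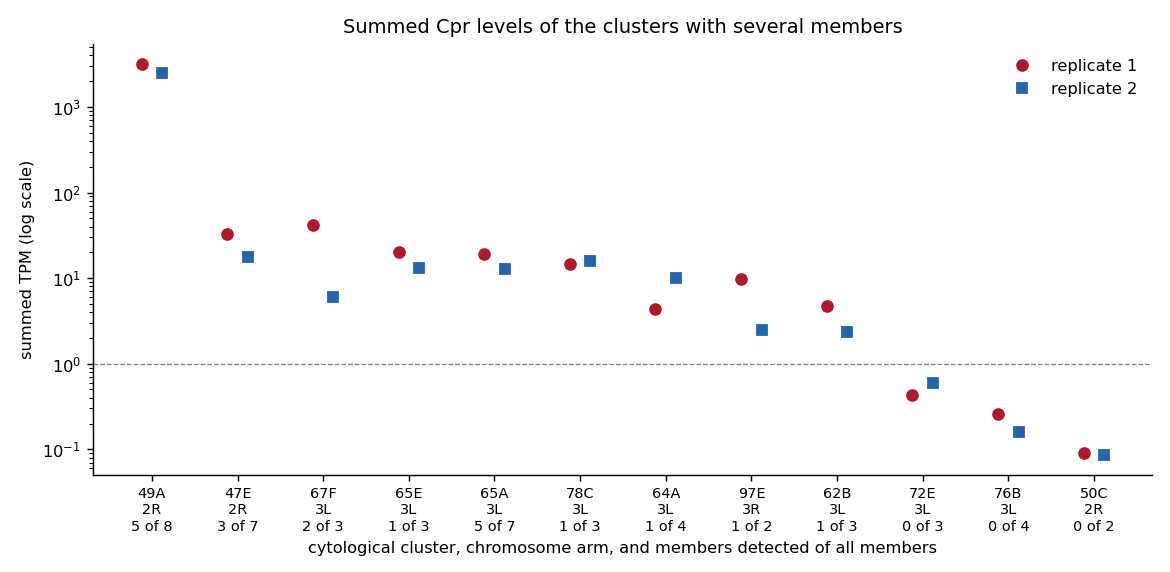
Summed TPM (log axis) of the 12 bands with several Cpr genes, with replicate 1 as circles to the left and replicate 2 as squares to the right. Labels give the band, the chromosome arm, and how many members were at 1 TPM or more in both libraries. The 49A cluster stands at the top in both libraries, 67F shows the widest gap between them, and 3 clusters lie under 1 TPM.

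**Figure D4:**
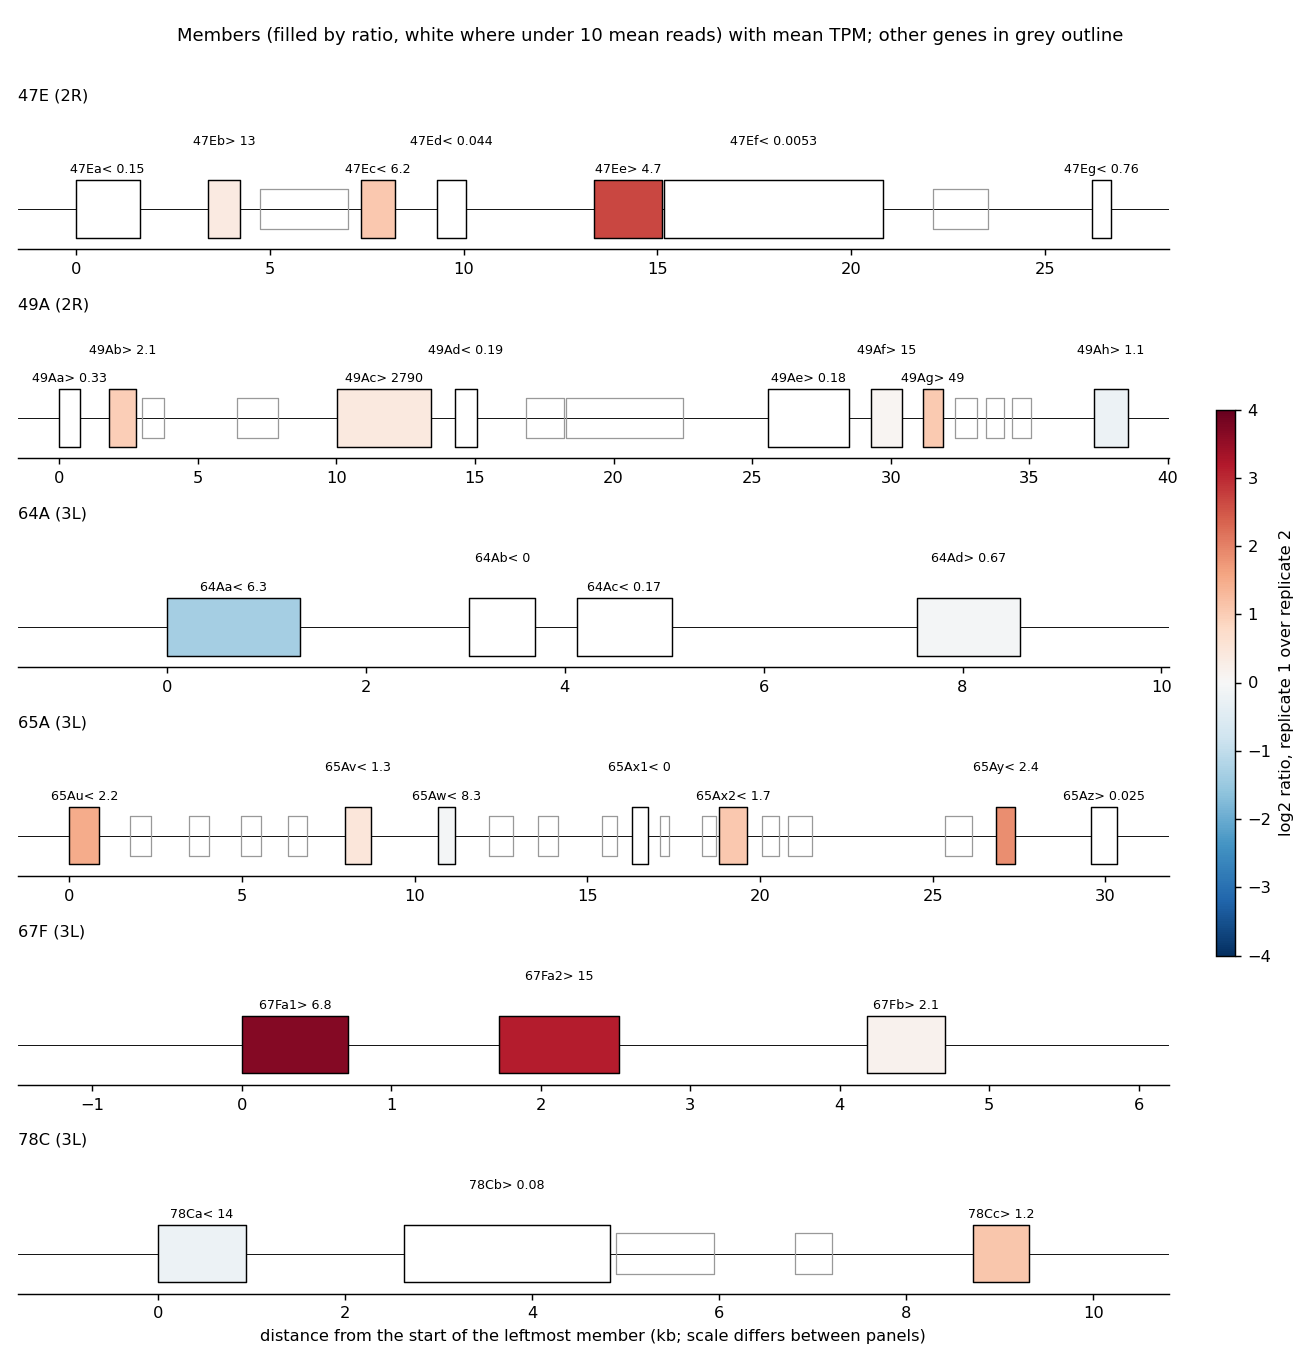
Maps of 6 Cpr clusters to scale, as distance in kb from the start of the leftmost member. Filled boxes are Cpr genes, coloured by the log2 ratio of replicate 1 over replicate 2 (white under a mean of 10 reads), labelled with the strand (> plus, < minus) and mean TPM; grey outlines are other genes lying inside the cluster. Strongly coloured, pale and white genes lie side by side in 47E and 65A, and strongly coloured and pale genes in 67F.

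Counted by summed reads, 27 of the 33 bands averaged 10 reads or more, of which 6 were higher in replicate 1 (47E, 62B, 66C, 67F, 97E and 11B) and 1, 64A, in replicate 2. With library size alone 47E (1.85-fold) and 62B (1.81-fold) were no longer 2-fold apart, which left 4 and 1. Of the 6, 66C and 11B are single genes, so their calls repeat the gene calls. No share was computed for summed groups of other genes, so these band counts have no background beside them. All other genes inside or within 5 kb of the 12 clusters were also looked up. Of 42 such neighbours with enough reads 4 (9.52%) differed at least 2-fold, beside 5.42% of all genes. Of these 3 were higher in replicate 1 and 1 was higher in replicate 2, where the shares of all genes were 4.1% and 1.32%. Of the 3, Edg78E (15 and 5 reads) and Lcp65Aa (37 and 6 reads) are cuticle genes with the same domain, and CG15005 beside 64A had 136 and 30 reads. CG14258, beside 97E, stood at 97.0 and 253 TPM, a ratio of 0.378 (0.361 to 0.395). These genes were named after their values were seen.

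Other genes of cuticle and moulting were set beside the Cpr genes. Of 28 further genes with the same chitin-binding domain (Lcp1 to Lcp4, Lcp9, the Lcp65A and Ccp84A genes, Edg78E, Edg84A, Pcp, Crys, resilin and Acp65Aa) 9 were detected. Their summed level was 16083 TPM in replicate 1 and 24883 TPM in replicate 2, where Lcp1 and Lcp4 led. Of the 13 with enough reads, 2 were higher in replicate 1 and 0 in replicate 2 (4.1% and 1.32% of all genes). The 2 were Lcp65Aa and Edg78E, already counted among the neighbours of the clusters. The median log2 ratio of the 13 was -0.07. Among 38 genes of other cuticle families (Tweedle, obstructor and a few more), 20 had enough reads, with a median of -0.08. Of these 20, 4 were higher in replicate 1 and 1 in replicate 2, beside 4.1% and 1.32% of all genes. Those higher in replicate 1 were obst-A, which encodes a chitin-binding matrix protein (135 and 44.0 TPM), and the Tweedle genes TwdlT, TwdlX and Twdlbeta, while TwdlN was higher in replicate 2. For chitin synthesis and assembly, 13 of 14 listed genes were matched and none of the 13 differed 2-fold, the chitin synthase gene kkv standing at 14.3 and 12.7 TPM in replicates 1 and 2.

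Some regulators of moulting and of the ecdysone response were also higher in replicate 1. Of 19 such genes, all with enough reads, 5 passed 2-fold in that direction and 0 in the other, where 4.1% and 1.32% of all genes did. The log2 ratio was above 0 in 17 of the 19 (47.1% of all genes), with a median of 0.52. The nuclear receptor genes Hr3, Hr4 and Eip78C stood at 8.25, 27.6 and 63.7 TPM in replicate 1 and at 0.901, 7.15 and 12.7 TPM in replicate 2. Eip93F and Blimp-1, transcription factor genes of the metamorphic response, stood at 11.0 and 12.4 TPM in replicate 1 and at 1.74 and 3.51 TPM in replicate 2. The gene of the receptor FTZ-F1 was at 1.99 and 2.65 TPM, and EcR, the gene of the ecdysone receptor, at 109 and 104 TPM. In the larval list, the salivary glue genes Sgs3 and Sgs4 were higher in replicate 2, at 4639 and 9558 TPM and at 3021 and 7591 TPM in replicates 1 and 2. The other 7 genes of that list did not pass 2-fold, among them the glue gene Sgs7 at 29704 and 59128 TPM. Of its fat body genes, Lsp1alpha at 1968 and 998 TPM, Fbp1 at 9790 and 5482 TPM and Lsp1gamma at 2300 and 1322 TPM had the highest ratios, of up to 1.93-fold. The other fat body genes of the list, Lsp1beta, Lsp2 and Fbp2, had ratios of 1.12, 0.977 and 0.932, replicate 1 over replicate 2. The listed pupal cuticle markers summed to 9.59 and 8.07 TPM. Of these Edg84A had 0 reads in both libraries, Edg78E stood at 1.06 and 0.271 TPM and Edg91 at 8.53 and 7.80 TPM. Of the 4 markers of trachea and apical matrix 3 were matched, none of which passed 2-fold. Their sum was 98.1 TPM in replicate 1 and 67.5 TPM in replicate 2, with the tracheal genes btl at 3.14 and 1.74 TPM and trh at 7.55 and 4.96 TPM. The part of stage or tissue makeup in the Cpr ratios was not tested.

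Compact gene structures were more frequent among the Cpr genes than among all genes, a property that the choice by name did not use. For each gene the transcript with most reads was taken, or that with the longest coding sequence where there were none. The encoded proteins had a median of 179.5 residues (quartiles 134 and 246.5, range 86 to 1228, the longest being Cpr76Bd), against a median of 389 (quartiles 218 and 629) over all 13693 protein-coding genes. In 43 of the 70 (61.4%) the coding sequence lay in exactly 2 exons, as in 22.0% of all protein-coding genes. The first intron lay very early. In the 64 members with more than 1 coding exon the first coding exon held a median of 12 coding bases, against 140 in the 10905 such genes overall. Exactly 12 coding bases, the start codon and 3 further codons, were found in 27 of the 64 (42.2%) and in 1.37% of all such genes. These 27 lie in 19 bands on 5 chromosome arms, and make up 18.1% of the 149 genes of that structure in the whole table.

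Abundant, silent and differing members were all found among these 27. At the other end of gene structure Cpr47Ef has 16 coding exons. Of the 27, 11 were detected, and of the other 43 members 23 were. Cpr78E, Cpr60D, Cpr65Ec and Cpr92F had it, and so did Cpr23B, which had 0 reads. Of the 13 genes higher in replicate 1 it was present in 5, which include both Cpr67Fa genes. The 6 members with a single coding exon include Cpr47Eb, the leading gene of its cluster, and Cpr76Ba and Cpr76Bb with 0 reads. Members of a family are related by descent, so they are not independent cases.

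**Figure D5:**
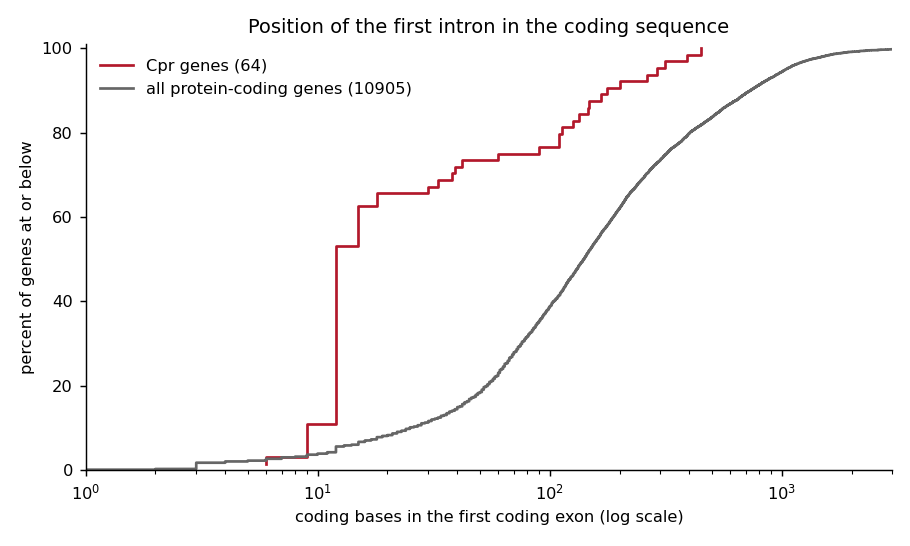
Cumulative share of genes (percent) by the number of coding bases in the first coding exon (log axis), for the 64 Cpr genes and for the 10905 protein-coding genes overall that have more than 1 coding exon. The Cpr curve climbs steeply at 12 bases, where 27 of the 64 genes lie.

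Several transcripts are listed for 17 of the 70 members. Cpr49Ac has 6, and its reads were spread over them. The transcript FBtr0087916, which encodes 324 residues, made up 42.5% of the gene's level in replicate 1 and 50.2% in replicate 2. FBtr0301372, with a coding sequence of 123 residues and a length of 1733 bases, took 22.7% in replicate 1 and 9.35% in replicate 2, that is 710 and 229 TPM. FBtr0339631 (315 residues) held 21.4% and 22.5% in replicates 1 and 2. These shares are estimates from reads that can fit several isoforms, and no interval covers that error.

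In the other abundant genes with several transcripts, 1 isoform dominated. For Cpr57A the transcript FBtr0086263 made up 98.1% in replicate 1 and 97.8% in replicate 2, and for Cpr60D FBtr0072334 took 97.1% and 97.9%. Cpr65Aw was divided between FBtr0077023 (117 residues) and FBtr0307048 (86 residues). The shorter form held 50.2% in replicate 1 and 70.3% in replicate 2, from 87 and 119 reads of the gene. The 10 reads of Cpr62Ba in replicate 1 and its 27 reads in replicate 2 were assigned to different isoforms that encode 136 residues alike.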

How the data were processed

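Per the file headers, the authors deposited 1 table per library, listing TPM and estimated counts for FlyBase transcripts. Quantifier, build and gene set stay unnamed (not given in the sources used here), and strandedness likewise, so antisense reads may not be separated. The submitters' processing notes list HTSeq 0.6.1, STAR 2.5.2, bcl2fastq 2.18.0.12, Picard and FastQC, with no roles. Of 30119 entries 29992 matched the Ensembl release 115 annotation of BDGP6, with equal lengths for 99.8%. The other 127, with 0.0981% and 0.110% of reads, were left out. Both units were then summed per gene. Counts were rounded and scaled in R 4.3.3 by the TMM method (edgeR 4.0.16). Levels carry exact Poisson intervals and ratios exact Clopper-Pearson intervals at 95%, which cover counting error only, since PCR copies of a molecule cannot be recognised and reads are then not independent. Log2 ratios had 0.5 reads added. The calls were also run on simulated counts that held counting error alone, which cannot show how they behave with spread between samples. DESeq2 1.42.0 size factors, library size alone, other thresholds and each library alone were tried. Replicates may be partly technical.

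Named in full were the 10 most abundant members, those at least 2-fold apart, the most abundant gene of each cluster of 3 or more, and those crossing 1 TPM. Members and lists were chosen with earlier results of these data known.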

Additional observations from a re-analysis of the deposited data

How the results depend on the processing

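With 1 group of 2 libraries the spread between animals cannot be estimated, and depth limits the ratios of members with few reads. No paired analysis was possible because a single group was analysed. The ratios need both libraries, so leaving 1 out is defined for levels alone. There, with each library alone, 35 to 36 members were detected, the Cpr share of TPM was 0.515% to 0.535%, and the share of the 10 most abundant was 96.5% to 97.8%. At 5 TPM 16 members were detected in place of 34. By reads in place of TPM the Cpr share was 0.447% (0.459% in replicate 1 and 0.436% in replicate 2) and without rRNA it was 0.552% of the TPM (0.581% and 0.523%), against 0.525% of all TPM. With 100 reads on average asked for, the 14 members at least 2-fold apart became 9. There 26 members and 10352 genes are tested, and 3.7% of genes differ. At 1.5-fold the 14 became 22 and at 4-fold they became 4, and the 7 bands became 13 and 2. No share of all genes was computed at 1.5-fold or 4-fold, so these counts have no background beside them. Library size alone moved every log2 ratio by -0.19, so the Cpr median became 0.18 in place of 0.37. Of the 14 calls 10 were shared there, with Cpr62Ba and Cpr97Eb added, both higher in replicate 2. An alternative chosen after seeing the data left out members with annotated exon overlap or, on a single transcript, read estimates more than 0.01 from a whole number. It gave 9 of 29, of which 8 were higher in replicate 1, with fewer genes tested. The share of all genes under the same exclusion was not computed, so this count has no background either. The other alternatives (DESeq2 size factors, no filter on reads, 0.5 TPM, bands by number alone, single transcripts, the Cpr67Fa pair summed) stayed within 1.5 times each main count, and the sign of the median was the same under every setting in which it was computed.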
